A study of Mus musculus with 4 samples.

Results

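The small-subunit ribosomal protein genes encode the proteins of the 40S subunit of the cytosolic ribosome. They were taken as the protein-coding genes of the deposited table whose symbol is Rpsa or Rps followed by a number and at most the letters of a known variant, with the Rps6k kinases left out. This gave 32 genes of 54532 in the table, 22046 of them protein-coding. They lie on 13 chromosomes, 9 of them on chromosome 7. 3 further components of the subunit carry other symbols and are not among the 32. They are Rps3a1, Fau, whose product is a fusion of a ubiquitin-like protein with the ribosomal protein eS30, and Rack1, a scaffold protein on the head of the subunit.

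Expression was measured by RNA sequencing of 4 mouse libraries, 2 with the genotype Piezo1KO and 2 with the genotype WT. Both groups are labelled as CD4+ T cells that had infiltrated a tumour of B16 cells, which are melanin-forming mouse melanoma cells. Piezo1 forms a channel that lets cations in when the membrane is stretched, and the series asks how it acts in the differentiation of Th9 cells. The labels give no strain, age, allele or Cre driver, and leave unsaid whether each library is from its own animal. The p-values therefore cover no more than the spread among the 4 libraries, and that spread may be technical.

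The 40S subunit binds messenger RNA and reads its codons, and its proteins are built in near equal numbers together with an 18S ribosomal RNA. Messenger RNAs of ribosomal proteins are among the most abundant of growing cells. Most begin with a C followed by a run of C and T bases, the 5′ terminal oligopyrimidine (TOP) motif, through which the kinase mTOR and the RNA-binding protein Larp1 control their translation as a group. Most ribosomal protein genes have also left processed pseudogenes, intronless copies made by reverse transcription, across the mammalian genome.

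The start sites show the TOP motif in part of the set. RefSeq promoter sequences on GRCm38.p6, with 250 bases before and 50 after each annotated start, were found for 24 of the 32 genes. A first base of C with a pyrimidine run of at least 5 bases from it was found for 7 of 24 genes (29.2%), against 3.01% of 27025 genes in the same table. The 7 are shown because they carry this feature, each with 20 bases before the start and the first 20 bases from it, with the pyrimidine run from the first base in capitals.
Rps6 (chr4:86857348-86857387, minus strand): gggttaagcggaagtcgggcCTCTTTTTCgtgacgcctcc
Rps10 (chr17:27635225-27635264, minus strand): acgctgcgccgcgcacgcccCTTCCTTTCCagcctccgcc
Rps15a (chr7:118116128-118116167, minus strand): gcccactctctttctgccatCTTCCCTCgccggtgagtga
Rps18 (chr17:33955646-33955685, minus strand): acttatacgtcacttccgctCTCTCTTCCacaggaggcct
Rps21 (chr2:180257359-180257398, plus strand): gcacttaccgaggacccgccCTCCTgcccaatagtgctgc
Rps27 (chr3:90213629-90213668, minus strand): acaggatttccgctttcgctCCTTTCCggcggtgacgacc
Rps27rt (chr9:114982720-114982759, minus strand): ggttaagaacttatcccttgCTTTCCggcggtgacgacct
The run is longest in Rps10, with 10 bases, and shortest in Rps21, with 5.

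A pyrimidine run of at least 8 bases within 20 bases before to 40 after the start was found for 15 of 24 genes (62.5%), against 24.7% of all genes in the table. In the 300-base windows, searched on both strands, the letters CCGGAAG, part of the sites of ETS factors, were present for 10 of 24 genes (41.7%, against 9.93% of all genes). AAGATGG, part of the sites of the factor YY1, was present for 5 of 24 (20.8%, against 7.28%). These motifs can share letters with each other and with the pyrimidine run. A match describes the letters of a window and is no measure of binding, and a start with no match says only that these letters are not at the annotated base.

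Rps27 and Rps27rt are shown a second time, because their reads cannot be told apart. Rps27rt is an intronless copy of Rps27 that the table lists as protein-coding. The first 30 bases from each start are given, with the stretch shared by the pair in capitals.
Rps27 (chr3:90213619-90213648, minus strand): cCTTTCCGGCGGTGACGACCTCCCTACGAG
Rps27rt (chr9:114982710-114982739, minus strand): CTTTCCGGCGGTGACGACCTCCCTACGAGA
The shared stretch ran for 38 bases within the first 50. Of the 100-base windows in the mature Rps27 transcript, 98.4% occurred unchanged in a transcript of Rps27rt.

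Several facts of the libraries touch all results. Reads assigned to genes numbered 13789266 in the shallowest library and 15892797 in the deepest. Mitochondrial genes took 20.1% and 48.3% of assigned reads in Piezo1KO 1 and Piezo1KO 2, against 3.86% and 2.99% in WT 1 and WT 2. A list of 14 T cell markers held 0.00444% and 0.00153% of assigned reads in Piezo1KO 1 and Piezo1KO 2, against 0.00114% and 9.12e-04% in WT 1 and WT 2. Of its 5 tested genes 0 passed the test described below, and 4 entered it through the Piezo1KO libraries alone, with WT means under 1 FPKM, so a higher value there was built in. Cd3e, which encodes a CD3 chain, had 27 and 0 reads in the Piezo1KO libraries, against 1 and 2 reads in the WT libraries. The other CD3 chain genes and Cd4 had few reads too, with more in both Piezo1KO libraries than in both WT libraries. Cd3d had 20 and 7 reads in Piezo1KO, against 1 and 1 in WT, and Cd3g 23 and 10, against 0 and 1. Cd247 had 13 and 2 reads in Piezo1KO, against 1 and 0 in WT, and Cd4 35 and 9, against 1 and 3. A list of 10 melanocyte markers held 2.37% and 1.27% of assigned reads in the Piezo1KO libraries, against 2.89% and 2.95% in the WT libraries. Of reads outside mitochondrial genes it held 2.96% and 2.46% in Piezo1KO, against 3.004% and 3.039% in WT, while its summed FPKM was higher in Piezo1KO, at 7465 and 7342, against 6784 and 6809 in WT. The defining transcripts of the labelled cell type were thus nearly absent, and the libraries are named by genotype here. A list of 7 erythroid markers held 0.388% and 0.356% in Piezo1KO 1 and Piezo1KO 2, against 0.0390% and 0.0248% in WT 1 and WT 2. Of its 5 tested genes 5 passed that test as higher in Piezo1KO, where 0.731% of all tested genes did. Macrophage markers were also higher in both Piezo1KO libraries for 9 of 10 tested genes, where 33.9% of all tested genes were. Of the 10, 2 passed and 2 entered the test through Piezo1KO alone. All 4 tested neutrophil markers did so, which built in their direction, and the neutrophil list held 0.0102% and 0.00187% of assigned reads in Piezo1KO, against 1.09e-04% and 1.89e-04% in WT. The part of these markers in the results on ribosomal protein genes was not tested. In such bulk samples, fewer cells of a type and less RNA per cell cannot be told apart.

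All 32 genes passed the filter of a mean of at least 1 FPKM (fragments per kilobase of gene and per unit of library size) over the 4 libraries, Rps10 with the lowest mean. Together they summed to 10708 and 31721 FPKM in Piezo1KO 1 and Piezo1KO 2, against 6560 and 6240 FPKM in WT 1 and WT 2. Both Piezo1KO sums lay above both WT sums, and Piezo1KO 2 lay further from Piezo1KO 1 than Piezo1KO 1 did from WT. The means were 21214 ± 14859 FPKM in Piezo1KO and 6400 ± 226 FPKM in WT (SD, n = 2 each), a ratio of 3.31 (exact two-sided permutation test, p = 0.333, the smallest that 2 against 2 libraries can give). Without Piezo1KO 1 the ratio was 4.96, and without Piezo1KO 2 it was 1.67.

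The size of this difference depended on what the reads were scaled to. The set held 2.23% and 5.44% of reads outside mitochondrial genes in Piezo1KO 1 and Piezo1KO 2, against 1.55% and 1.48% in WT 1 and WT 2, a ratio of 2.53 between group means. Of all assigned reads, mitochondrial ones included, it held 1.78% (exact 95% interval 1.778 to 1.791%) and 2.81% (2.804 to 2.821%) in Piezo1KO 1 and Piezo1KO 2. In WT 1 and WT 2 it held 1.49% (1.484 to 1.496%) and 1.44% (1.431 to 1.443%), a ratio of 1.57. Both Piezo1KO libraries lay above both WT libraries on each of these 3 scales.

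**Figure D1:**
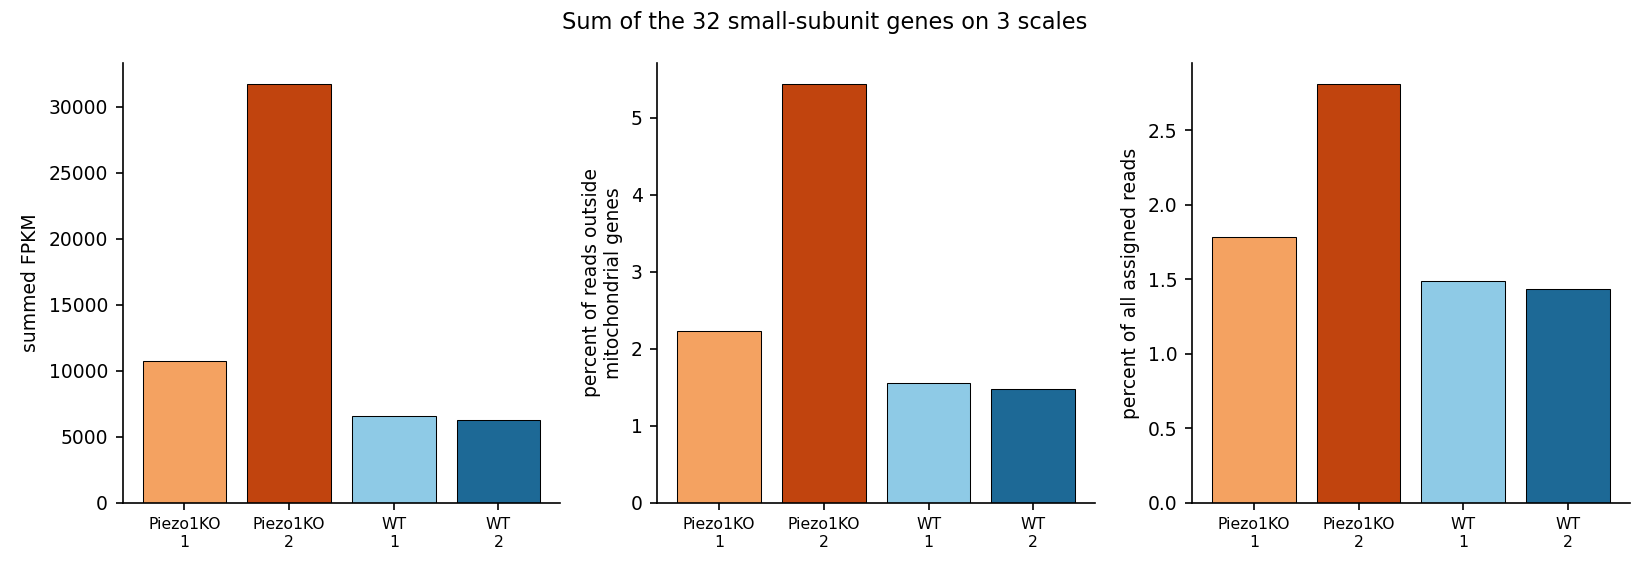
Sum of the 32 small-subunit genes in each library, as summed FPKM, as a percent of reads outside mitochondrial genes and as a percent of all assigned reads, 1 bar per library. Piezo1KO 2 is the highest bar in each panel, with 31721 FPKM, 5.44% and 2.81%, and Piezo1KO 1 comes next, above both WT libraries.

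Gene by gene, 31 of 32 genes were higher in both Piezo1KO libraries than in both WT libraries, and Rps10 was lower in both. Among the 11085 genes tested, 33.9% were higher in this way and 35.6% lower. The median log2 fold change over the 32 genes was 1.49, on the scale of log2(FPKM + 1), against -0.0059 over all tested genes. In limma 0 of 32 passed the threshold of 0.05 on the adjusted p, in either direction, where 1.1% of all tested genes passed, 0.731% as higher and 0.37% as lower. Adjusted p ran from 0.143 for Rps27 to 0.279 for Rps27l. At an unadjusted p under 0.05, 18 of 32 were higher and 0 lower, where 14.9% of tested genes were higher and 13.7% lower. voom on whole reads recovered from the table also called 0 of 32, where it called 0.65% of tested genes as higher and 0.0902% as lower.

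The spread within Piezo1KO set the width of these errors. Piezo1KO 2 was above Piezo1KO 1 for 32 of 32 genes, and the step between these libraries was larger, as a ratio, than the step from the WT mean to Piezo1KO 1 for 31 of 32, all except Rps10. The median ratio to the WT mean was 1.65 in Piezo1KO 1 and 5.16 in Piezo1KO 2. The WT libraries differed by a median factor of 1.06. Without Piezo1KO 1, 31 genes passed as higher, where 27.5% of tested genes did, and 0 as lower, where 25.4% did. Without Piezo1KO 2, 25 passed as higher, where 9.71% did, and Rps10 passed as lower, where 4.54% did. In these fits the lone Piezo1KO library is assumed to vary as the WT libraries do. The mitochondrial share moved in the same order, being highest in Piezo1KO 2, and its part in these differences was not tested.

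**Figure D2:**
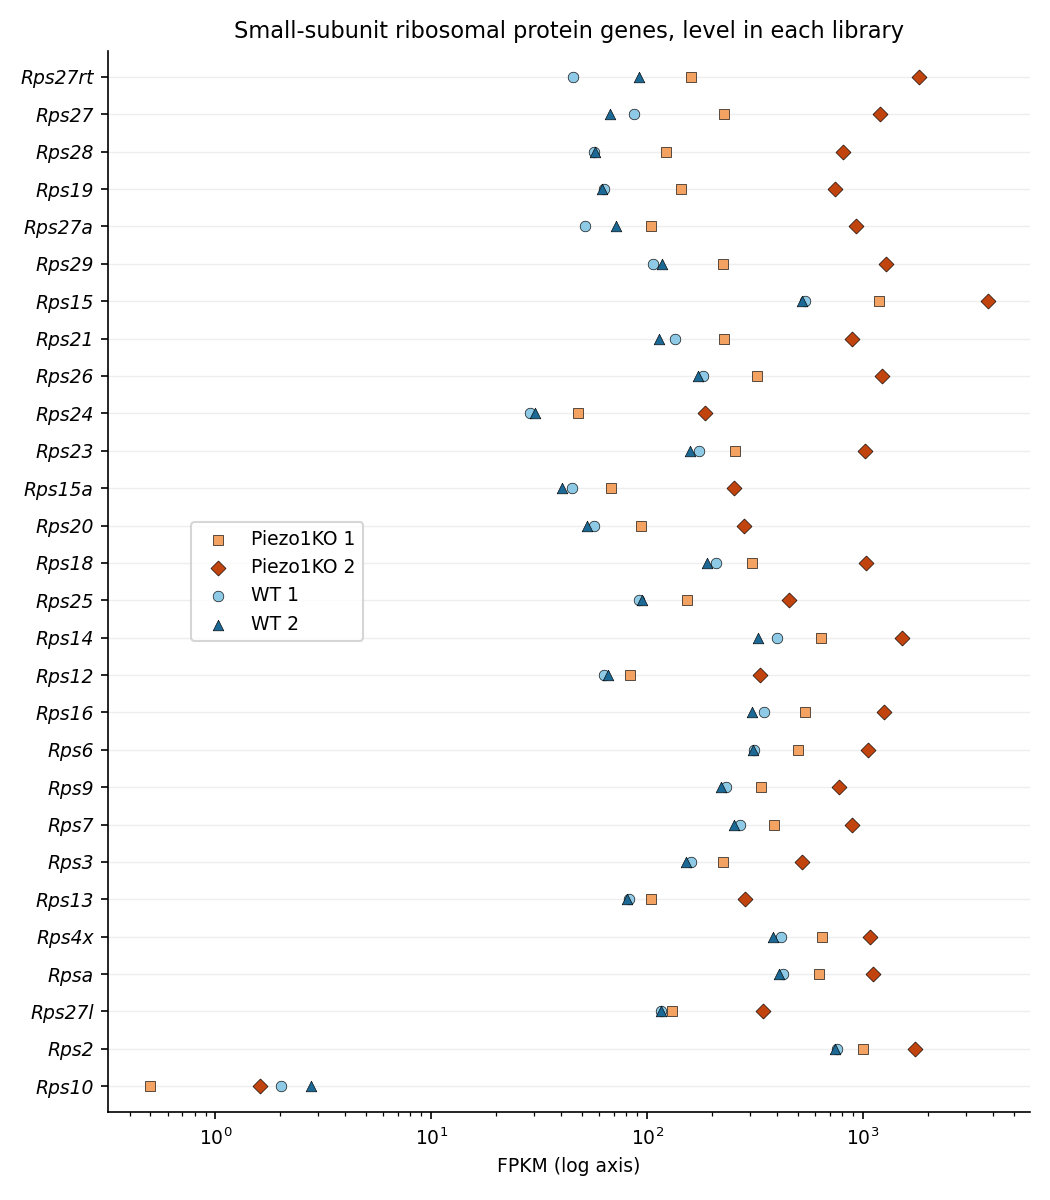
FPKM of the genes reported individually, on a log axis, 1 point per library, with genes ordered by log2 fold change. The Piezo1KO points lie to the right of the WT points in every row except that of Rps10, where they lie to the left.

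The proteins of the subunit's head, which holds the beak and some of the contacts to the 60S subunit and to transfer RNAs, are given first. Of 14 head genes 13 were higher in both Piezo1KO libraries, where 33.9% of all tested genes were. Of the 14, 0 passed the test, with a median log2 fold change of 1.49. Rps15 (GRCm38 chromosome 10, 80292453 to 80294114), whose product lies near the decoding site, had the highest FPKM of the set in both Piezo1KO libraries, where Rps2 had the highest in both WT libraries. Rps15 had 1189 and 3791 FPKM in Piezo1KO 1 and Piezo1KO 2, against 537 and 520 FPKM in WT 1 and WT 2. Its log2 fold change was 2.00 with a standard error of 0.62 (limma adjusted p = 0.148). The WT values lay close together and both below Piezo1KO 1.

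Rps19 is the gene most often mutated in human Diamond-Blackfan anaemia, an inherited failure of red cell production. It had 143 and 743 FPKM in Piezo1KO 1 and Piezo1KO 2, against 63.3 and 61.8 FPKM in WT 1 and WT 2. The log2 fold change was 2.37 with a standard error of 0.80 (limma adjusted p = 0.157). Rps28 and Rps29 are among the smallest proteins of the subunit. Rps28 had 122 and 805 FPKM in Piezo1KO, against 57.0 and 57.5 FPKM in WT, and Rps29 had 224 and 1274 FPKM in Piezo1KO, against 106 and 118 FPKM in WT. Log2 fold changes were 2.44 for Rps28 and 2.25 for Rps29 (limma adjusted p of 0.171 and 0.175), and in both genes Piezo1KO 2 stood apart from the other 3 libraries.

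Rps27a is made as a fusion with ubiquitin, which is cut off to leave the ribosomal protein eS31. It had 104 and 924 FPKM in Piezo1KO 1 and Piezo1KO 2, against 51.8 and 71.7 FPKM in WT 1 and WT 2. The log2 fold change was 2.33 with a standard error of 1.06 (limma adjusted p = 0.214). Piezo1KO 1 was nearer to the WT values than to Piezo1KO 2. Rps3, which lines the messenger RNA entry channel and also has roles in DNA repair, had 225 and 522 FPKM in the Piezo1KO libraries, against 160 and 152 FPKM in the WT libraries (log2 fold change 1.13, limma adjusted p = 0.182).

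Rps16 had 542 and 1252 FPKM in Piezo1KO 1 and Piezo1KO 2, against 348 and 306 FPKM in WT 1 and WT 2. Rps20 had 94.0 and 282 FPKM in Piezo1KO, against 57.0 and 52.4 FPKM in WT. Rps12 had 83.1 and 335 FPKM in Piezo1KO, against 62.8 and 65.6 FPKM in WT, and its Piezo1KO 1 value was the nearest to WT among these 3 genes. Their log2 fold changes were 1.33, 1.56 and 1.37 (limma adjusted p of 0.160, 0.160 and 0.240).

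The proteins of the body and platform, which carry the messenger RNA path and the binding surface of initiation factors, are given next. Of 16 such genes among the 32, all 16 were higher in both Piezo1KO libraries, where 33.9% of all tested genes were. Of the 16, 0 passed the test, with a median log2 fold change of 1.52. Rps2 (GRCm38 chromosome 17, 24718116 to 24721929), near the messenger RNA entry, had 1002 and 1745 FPKM in Piezo1KO 1 and Piezo1KO 2, against 759 and 740 FPKM in WT 1 and WT 2. At 0.82, with a standard error of 0.38, its log2 fold change was the smallest of those above 0 (limma adjusted p = 0.222). As counts this was 27054 and 23932 reads in Piezo1KO, against 27376 and 27571 reads in WT, and the log2 fold change of Rps2 was 0.0064 when FPKM was scaled by all assigned reads.

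Rpsa, which also serves as a laminin receptor, had 624 and 1114 FPKM in Piezo1KO 1 and Piezo1KO 2, against 427 and 409 FPKM in WT 1 and WT 2. Rps4x, an X-linked gene whose protein touches the entry channel, had 643 and 1074 FPKM in Piezo1KO, against 418 and 384 FPKM in WT. Rps6, the main ribosomal substrate of the S6 kinases downstream of mTOR, had 499 and 1058 FPKM in Piezo1KO, against 314 and 310 FPKM in WT. Their log2 fold changes were 0.99, 1.05 and 1.22 (limma adjusted p of 0.168, 0.152 and 0.159). After quantile normalisation Rps2, Rpsa, Rps4x, Rps6 and Rps7 turned to -0.60, -0.47, -0.33, -0.025 and -0.0053.

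Rps13 had 104 and 283 FPKM in Piezo1KO 1 and Piezo1KO 2, against 82.7 and 81.1 FPKM in WT 1 and WT 2. Rps14 had 637 and 1515 FPKM in Piezo1KO, against 400 and 326 FPKM in WT. In both genes Piezo1KO 2 stood highest and Piezo1KO 1 lay above both WT libraries, by less in Rps13. Log2 fold changes were 1.06 for Rps13 and 1.44 for Rps14 (limma adjusted p of 0.225 and 0.156).

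Rps24 and Rps15a had the lowest levels after Rps10. Rps24 had 47.9 and 185 FPKM in Piezo1KO 1 and Piezo1KO 2, against 28.7 and 30.2 FPKM in WT 1 and WT 2. Rps15a had 68.2 and 253 FPKM in Piezo1KO, against 44.6 and 40.2 FPKM in WT. Both ranks rest on the gene length the table divides by, 6256 and 6270 bases, which covers all annotated exons, while the coding parts are 390 bases each. Per kilobase of the mature transcript in GENCODE M21 their ranks among the 32 were 18 and 17, where by FPKM they were 31 and 30. Rps2 then ranked 1 and Rps18 ranked 2. Among Rps7, Rps9, Rps18, Rps21, Rps23, Rps25 and Rps26, log2 fold changes lay between 1.17 for Rps7 and 1.86 for Rps21 (limma adjusted p from 0.168 to 0.198).

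**Figure D3:**
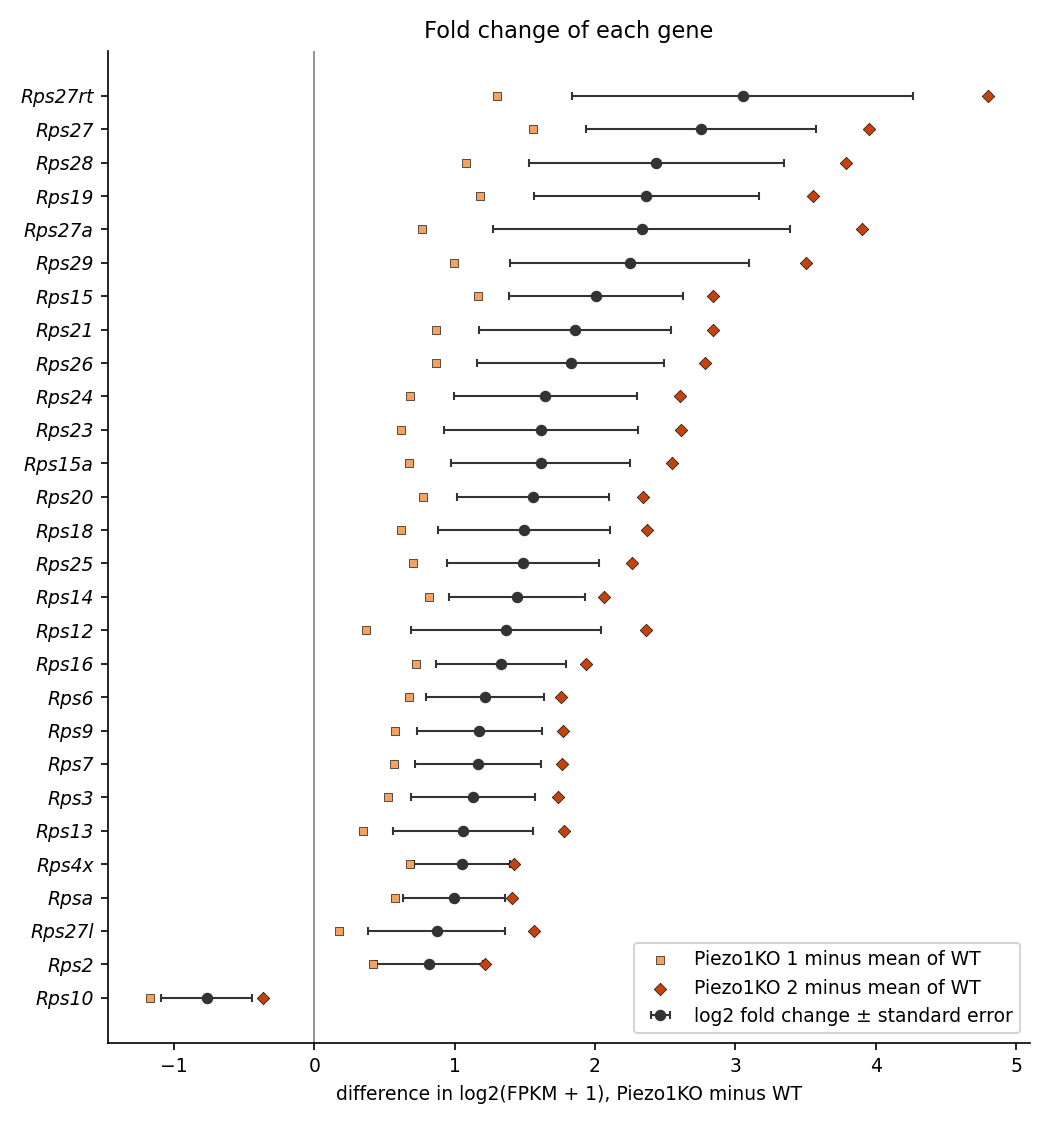
Difference in log2(FPKM + 1), Piezo1KO minus WT, for the genes reported individually, with the standard error from limma as bars and the value of each Piezo1KO library against the WT mean as coloured points. Differences run from -0.77 for Rps10 to 3.05 for Rps27rt, and Piezo1KO 2 lies to the right of Piezo1KO 1 in every row.

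Rps27 has an established paralog, Rps27l, a target of p53 that codes for a protein of the same length, besides its intronless copy Rps27rt. Rps27 (GRCm38 chromosome 3, 90212522 to 90213651) had 227 and 1198 FPKM in Piezo1KO 1 and Piezo1KO 2, against 86.9 and 67.1 FPKM in WT 1 and WT 2. Its log2 fold change, 2.76 (standard error 0.82), had the smallest adjusted p of the set (limma adjusted p = 0.143). Rps27l (GRCm38 chromosome 9, 66946086 to 66949516) had 131 and 345 FPKM in Piezo1KO, against 116 and 116 FPKM in WT (log2 fold change 0.87, standard error 0.49, limma adjusted p = 0.279). Piezo1KO 1 was 2.95 times the WT mean for Rps27 and 1.13 times for Rps27l. Both coding parts are 252 bases long. Of the 100-base windows of the mature Rps27l transcript 0% occurred in another gene, and of its 50-base windows 22.4% did. The difference between the paralogs was not tested.

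Rps27rt (GRCm38 chromosome 9, 114982366 to 114982739) had 160 and 1817 FPKM in Piezo1KO 1 and Piezo1KO 2, against 45.2 and 91.3 FPKM in WT 1 and WT 2. It had the largest log2 fold change of the set, 3.05, and the largest standard error, 1.21 (limma adjusted p = 0.185). The division of reads between Rps27 and Rps27rt was uneven within groups. Rps27 took 79.8% and 64.8% of the reads of the pair in Piezo1KO 1 and Piezo1KO 2, and 84.3% and 67.2% in WT 1 and WT 2. The pair together had 357 and 2026 reads per 1000000 reads outside mitochondrial genes in Piezo1KO 1 and Piezo1KO 2, against 141 and 137 in WT 1 and WT 2.

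Rps4l, a paralog of Rps4x that the table does not class as protein-coding, was looked at beside the set. It had 1.80 and 3.11 FPKM in the Piezo1KO libraries, against 0.108 and 0.0521 FPKM in the WT libraries (log2 fold change 1.65, limma adjusted p = 0.0862). It passed the filter through the Piezo1KO libraries alone, so a higher value there was built in.

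Rps10 (GRCm38 chromosome 17, 27630418 to 27636669), whose protein lies on the head and whose human gene is mutated in some families with Diamond-Blackfan anaemia, was the exception to the set. It had 0.499 and 1.62 FPKM in Piezo1KO 1 and Piezo1KO 2, from 17 and 28 reads, against 2.02 and 2.76 FPKM in WT 1 and WT 2, from 92 and 130 reads. Its log2 fold change was -0.77 with a standard error of 0.33 (limma adjusted p = 0.198). Scaled to all assigned reads it was -1.27 (limma adjusted p = 0.0167), in a fit whose p-values do not follow the spread of each gene, as given below.

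The level of Rps10 cannot be read apart from that of its copies. Of the 100-base windows in its mature transcript, 89.5% occurred in RPS10-NUDT3, a readthrough gene that overlaps it, and 73.4% in Rps10-ps2, a processed pseudogene on chromosome 16. RPS10-NUDT3 was listed with 0 reads in all 4 libraries. Rps10-ps2 had 304 and 915 FPKM in Piezo1KO 1 and Piezo1KO 2, against 210 and 187 FPKM in WT 1 and WT 2 (log2 fold change 1.41, limma adjusted p = 0.186). Rps10 itself took 0.684% and 0.720% of the reads of Rps10, its pseudogenes Rps10-ps1 and Rps10-ps2 and RPS10-NUDT3 in the Piezo1KO libraries, and 3.88% and 6.02% in the WT libraries. The 4 genes together had 203 and 545 reads per 1000000 reads outside mitochondrial genes in Piezo1KO 1 and Piezo1KO 2, against 158 and 140 in WT 1 and WT 2. This sum was higher in both Piezo1KO libraries than in both WT libraries, opposite in direction to Rps10 counted alone.

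**Figure D4:**
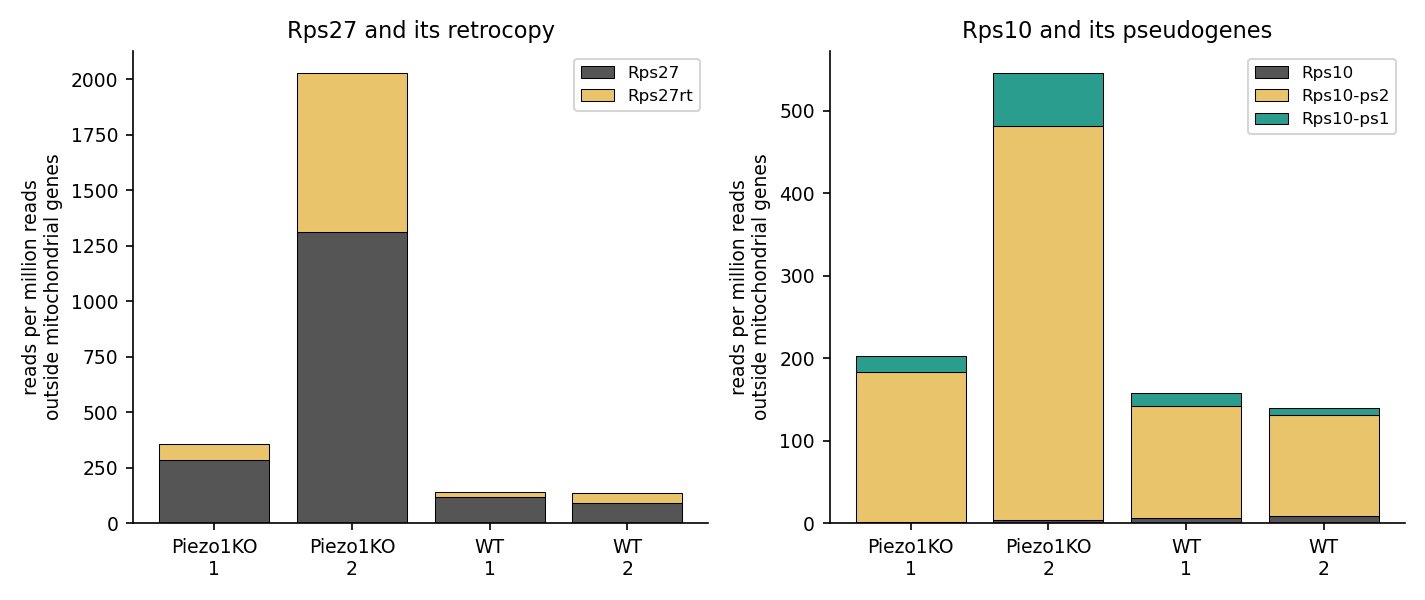
Stacked bars for each library, in reads per 1000000 reads outside mitochondrial genes, for Rps27 with Rps27rt and for Rps10 with its pseudogenes Rps10-ps2 and Rps10-ps1. The whole stack is highest in Piezo1KO 2, at 2026 for the Rps27 pair and 545 for the Rps10 genes, and Rps10 itself is the thin segment at the base.

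Sharing of sequence with other genes was common in the set. In 13 of 32 genes at least 50% of the 100-base windows of the mature transcript occurred in another annotated gene, and in 4 genes, Rps3, Rps21 and Rps27l among them, 0% did. Of 50-base windows, 2.96% in Rps3, 26.4% in Rps21 and 22.4% in Rps27l occurred in another gene. The 4 genes without a shared 100-base window were all higher in both Piezo1KO libraries, where 33.9% of all tested genes were. Log2 fold changes were 1.13 for Rps3, 1.86 for Rps21 and 0.87 for Rps27l. The median log2 fold change was 1.37 in the 13 genes and 1.56 in the other 19. Across the 32 genes the shared percentage and the fold change had a Spearman correlation of 0.066. Reads of genes such as Rps6, Rps12 and Rps13, where 83.6%, 88.9% and 77.6% of windows were shared, may have been divided among copies or left out. How reads with several matches were counted is not stated in the labels, nor whether counting used strand, and 6 of the 32 genes overlap another protein-coding gene.

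The make-up of the set is a measure that no scaling of whole libraries can alter. Each gene was expressed as its percent of the summed FPKM of the 32 genes. That percent was higher in both Piezo1KO libraries than in both WT libraries for 11 genes, lower for 10 and overlapping for 11, without a test. The counts of 11 higher and 10 lower are 34.4% and 31.2% of the set. For FPKM, which is a different measure, 33.9% of all tested genes were higher without overlap and 35.6% lower. Percents within a set cannot all rise together, and no background of such percents was computed, so these figures are not a like comparison. Rps2 took 9.36% and 5.50% of the set in Piezo1KO 1 and Piezo1KO 2, against 11.6% and 11.9% in WT 1 and WT 2. Rpsa took 5.83% and 3.51% in Piezo1KO, against 6.51% and 6.55% in WT. Rps15 took 11.1% and 12.0% in Piezo1KO, against 8.19% and 8.33% in WT, and Rps27 took 2.12% and 3.78% in Piezo1KO, against 1.32% and 1.07% in WT.

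Within the set, the genes with a higher percent in Piezo1KO mostly had shorter coding sequences than those with a lower percent. Coding lengths ran from 168 bases in Rps29 to 885 in Rpsa. The median was 345 bases for the 11 genes whose percent was higher in Piezo1KO and 656 bases for the 10 whose percent was lower. Across the 32 genes, coding length and log2 fold change had a Spearman correlation of -0.63, with all points from the same 4 libraries. Rps27l, with 252 bases, was a short gene with a lower percent. Rps13, with 453 bases, also had a lower percent, its length lying between the medians of 345 and 656 bases.

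**Figure D5:**
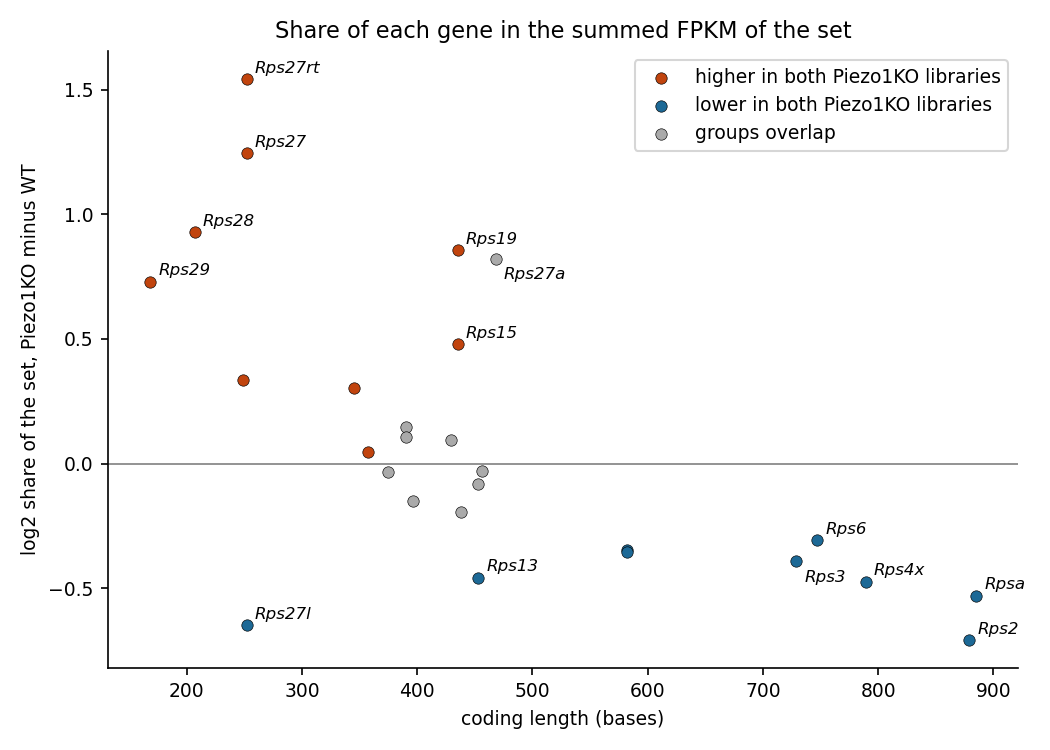
Log2 of each gene's share of the summed FPKM of the set, Piezo1KO minus WT, against coding length in bases, coloured by whether both Piezo1KO libraries lay above, below or across the WT libraries. The plot shows the genes reported individually, without Rps10. Rps27rt, Rps27, Rps28 and Rps29 lie at the upper left, and Rps2, Rpsa and Rps4x at the lower right.

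A length trend also ran through all genes of these libraries. Among the tested genes outside the ribosome, the median log2 fold change was 0.60 for 683 genes with a mature transcript under 500 bases and 0.58 for 1215 genes of 500 to under 1000 bases. It was -0.082 for 4017 genes of 2000 to under 4000 bases and -0.35 for 2304 genes of 4000 bases or more. The small-subunit genes had a median of 1.75 for the 10 genes under 500 bases and of 1.49 for the 18 of 500 to under 1000 bases. For the 3 of 1000 to under 2000 bases it was 1.13, where 2775 genes outside the ribosome had 0.24. Rps20, the only member of 2000 to under 4000 bases, had 1.56. Its mature transcript was taken as 3706 bases, for a coding part of 357 bases. With the trend against gene length removed from each library, the median of the 32 genes was 1.16, and with the trend against mature transcript length removed it was 0.98. On both scales 31 of 32 genes were above 0 and 0 passed the test. With the gene length trend removed, 0.325% of tested genes passed as higher and 0.126% as lower, and with the mature length trend removed 0.487% and 0.144% did. The part of transcript length in the difference was not tested further.

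On FPKM rescaled to all assigned reads, the median log2 fold change was 0.68 for the set and -0.67 for all tested genes. On this scale 9 of the 32 genes passed as higher, where 2.5% of all tested genes did. They were Rps15, Rps19, Rps21, Rps26, Rps27, Rps27a, Rps27rt, Rps28 and Rps29, with log2 fold changes from 1.02 for Rps26 to 2.24 for Rps27rt (limma adjusted p from 6.86e-07 for Rps27rt to 0.0474 for Rps26). Rps10 passed as lower, where 12.9% of all tested genes did. In this fit the standard error was 0.39 for Rps27rt and 0.35 for Rps2, where the main fit gave 1.21 and 0.38. The p-values on this scale therefore do not follow the spread between the replicates of each gene, and the calls share that limit.

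The components of the subunit with other symbols were higher in Piezo1KO too, without passing the test. Rps3a1 had 1311 and 4221 FPKM in Piezo1KO 1 and Piezo1KO 2, against 779 and 753 FPKM in WT 1 and WT 2. Fau had 705 and 2405 FPKM in Piezo1KO, against 331 and 305 FPKM in WT. Rack1, with the longest coding part of these genes, had 329 and 422 FPKM in Piezo1KO, against 239 and 212 FPKM in WT. Log2 fold changes were 1.62, 2.03 and 0.73 (limma adjusted p of 0.182, 0.148 and 0.152), and that of Rack1 turned to -0.36 after quantile normalisation and to -0.082 when FPKM was scaled by all assigned reads.

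The large subunit differed in the same direction. Its 52 genes summed to 17641 and 47694 FPKM in Piezo1KO 1 and Piezo1KO 2, against 11090 and 10518 FPKM in WT 1 and WT 2, and the 48 tested had a median log2 fold change of 1.43. The small-subunit sum was 0.607 and 0.665 of the large-subunit sum in Piezo1KO 1 and Piezo1KO 2, against 0.591 and 0.593 in WT 1 and WT 2. The groups did not overlap in this ratio, which differed by a factor of 1.07 (exact two-sided permutation test, p = 0.333, the smallest possible). In reads the same ratio was 0.688 and 0.769 in Piezo1KO, against 0.688 and 0.679 in WT.

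Genes that build the 40S subunit without being part of it stood near 0. Of 53 genes listed as assembly factors and processing enzymes of the small subunit, 0 passed in either direction and the median log2 fold change was 0.047. The list also holds Rrs1, a factor of large-subunit assembly, which is among the lower genes in the counts that follow. In both Piezo1KO libraries 19 were higher and 17 lower, where 33.9% and 35.6% of all tested genes were. At an unadjusted p under 0.05, 8 were higher and 7 lower, where 14.9% and 13.7% of all tested genes were. These counts were near the shares over all tested genes. Trmt112, a partner of the methyltransferase that modifies 18S ribosomal RNA, had 33.8 and 36.8 FPKM in Piezo1KO 1 and Piezo1KO 2, against 18.3 and 16.1 FPKM in WT 1 and WT 2 (log2 fold change 0.99, limma adjusted p = 0.0763). Tsr3, an enzyme of the same RNA, had 0.95, and Dimt1, which methylates it near its end, had -0.59 as log2 fold changes (limma adjusted p = 0.130 for Tsr3 and 0.132 for Dimt1). Under other scalings the median of the list moved with that of all tested genes. It was -0.16 with reads outside mitochondrial genes, where all tested genes had -0.20, -0.087 after quantile normalisation, where they had -0.070, and -0.70 with all assigned reads, where they had -0.67. With the mature transcript length trend removed the list had 0.12, where all tested genes had 0.052 and the small-subunit genes 0.98. The part of transcript length in the difference between the list and the small-subunit genes was not tested further.

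The genes that control translation of ribosomal protein messenger RNAs lay on both sides of 0. Of 18 listed, 0 passed, 6 lay above 0 and 12 below, with a median log2 fold change of -0.22. At an unadjusted p under 0.05, 1 was higher and 6 lower, where 14.9% and 13.7% of all tested genes were. The length trend given above, with lower values in longer transcripts, was not removed from this list. Larp1, which binds TOP motifs, had 22.9 and 16.2 FPKM in Piezo1KO 1 and Piezo1KO 2, against 34.3 and 36.1 FPKM in WT 1 and WT 2 (log2 fold change -0.84, limma adjusted p = 0.129). Eif4ebp1, an inhibitor of cap-dependent translation that mTOR switches off, had 74.0 and 93.7 FPKM in Piezo1KO, against 41.9 and 39.4 FPKM in WT (log2 fold change 1.02, limma adjusted p = 0.0990). Tia1, another binder of such messages under stress, had -0.65 (limma adjusted p = 0.118).

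RNA polymerase I and its cofactors, which make the ribosomal RNA, had a median log2 fold change of -0.034 over 18 genes, with 0 passing. At an unadjusted p under 0.05, 2 were higher and 1 lower, where 14.9% and 13.7% of all tested genes were. Polr1c, Taf1d and Polr1d had log2 fold changes of 0.87, -0.78 and 0.97 (limma adjusted p from 0.138 to 0.168). In the list of p53 and free ribosomal protein signalling, 0 of 7 passed. At an unadjusted p under 0.05, 3 were higher and 1 lower, against the same 14.9% and 13.7% of all tested genes. The 3 were Cdkn1a, Rpl5 and Rpl11. Rpl5 and Rpl11 are also among the large-subunit genes given above, and Rps27l of the set is in this list too. The count is therefore not separate from the results on ribosomal protein genes. Mdm4, an inhibitor of p53, had 2.22 and 2.14 FPKM in the Piezo1KO libraries, against 4.88 and 5.90 FPKM in the WT libraries (limma adjusted p = 0.0802). For Cdkn1a, a p53 target, the log2 fold change was 0.93 (limma adjusted p = 0.0898), and for Rpl11, which binds Mdm2 when free, it was 1.68 (limma adjusted p = 0.148). Of 17 tested genes for quality control and import of 40S proteins 0 passed, also 0 at an unadjusted p under 0.05, and the smallest p belonged to Tnpo1, Aamp and Usp10, at -0.50, 0.46 and -0.29 (limma adjusted p of 0.185, 0.198 and 0.202). The length trend was not removed from these lists either.

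Small nucleolar RNAs lie in introns of several of these genes and guide the modification of ribosomal RNA. By coordinates and strand, 17 lay inside 9 of the 32 genes, and 6 of them had a read in any library. They held 6 and 2 reads in all in Piezo1KO 1 and Piezo1KO 2, against 64 and 61 reads in WT 1 and WT 2, opposite in direction to their hosts. AF357399, inside Rps16, had 2 and 0 reads in Piezo1KO 1 and Piezo1KO 2, against 13 and 14 reads in WT 1 and WT 2, and it passed the filter on level through the WT libraries alone, so a lower value in Piezo1KO was built in. Snora78, on the strand opposite to Rps2, had 0 and 5 reads in Piezo1KO, against 0 and 0 reads in WT.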

How the data were processed

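fastp 0.19.7, featureCounts 1.5.0-p3 and mm10 (GRCm38) are named for cleaning, counting and genome in the submitters' processing notes. The authors deposited 1 table of FPKM values with gene lengths, and the aligner, annotation release and FPKM formula are not stated. Multiplying FPKM by gene length and dividing by the smallest step of a library gave whole reads for 100% of nonzero values (tolerance 0.05 reads). The library size implied by FPKM was 0.962 and 0.544 times the assigned reads in Piezo1KO 1 and Piezo1KO 2, and 1.26 and 1.28 times in WT 1 and WT 2.

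Genes with a mean of at least 1 FPKM, 11085 in all, were tested in limma 3.58.1 (R 4.3.3) on log2(FPKM + 1) (intensity trend, two-sided, Benjamini-Hochberg adjustment, threshold 0.05), Piezo1KO minus WT, with 2 residual and 2.59 prior degrees of freedom. Fold changes on this scale understate low genes. The fit was also run on simulated data, with an outcome that is not given here. That run is therefore no evidence on how the fit handles the spread between the Piezo1KO libraries. No exact test of 2 against 2 libraries can go below p = 0.333. Intervals cover counting error only.

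The 32 genes, the gene lists and the rule for named genes were chosen with earlier results of these data known. Some of the 32 genes, and 1 small nucleolar RNA, are not reported individually here, but counts, sums and medians include all 32. Values are given per library for the extremes in level and fold change, the paralogs, hosts of small nucleolar RNAs and selected genes, and from each other list up to 3 genes with the smallest p. Sequences are from the RefSeq promoter table on GRCm38.p6. Transcript windows and coding lengths are from GENCODE M21 (GRCm38), in which 31 of the 32 genes had the coordinates of the deposited table. Replicate numbers of the titles were not taken as pairs. Alternatives were a pseudocount of 0.1, other filters, no trend, robust variance, other scalings, length trends, voom, a replicate block and each library left out.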

Additional observations from a re-analysis of the deposited data

How the results depend on the processing

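The count of small-subunit genes passing the test was 0 higher and 0 lower in the main analysis. It moved under 3 of 17 alternatives, among them FPKM scaled to all assigned reads, whose p-values do not follow the spread between each gene's replicates. It was 9 higher and 1 lower with FPKM scaled to all assigned reads, and leaving out 1 library gave 0 to 31 higher and 0 to 1 lower, with 31 higher without Piezo1KO 1 and 25 higher without Piezo1KO 2. Genes above 0 numbered 31 in every alternative except quantile normalisation, with 26, where Rps2, Rpsa, Rps4x, Rps6 and Rps7 had -0.60, -0.47, -0.33, -0.025 and -0.0053. Outside the set, Rack1 had -0.082 with FPKM scaled to all assigned reads and -0.36 after quantile normalisation. The median log2 fold change of the set ranged from 0.43 after quantile normalisation to 2.35 without Piezo1KO 1. The count over all tested genes, 122, was 264 with a replicate block, 1707 with FPKM scaled to all assigned reads, 192 after quantile normalisation, 50 with the gene length trend removed, 70 with the mature length trend removed, 1 with no filter, 68 at a mean of at least 5 FPKM, and 0 to 5859 with 1 library left out. The replicate block changed no call among the 32 genes and left their median at 1.49. By the numbers of the titles, same-numbered libraries had deviations from the group means that correlated at r = -0.033 over 11085 genes. The opposite pairing gave r = 0.033, which is the same value with its sign turned, so this check cannot decide on pairs. The sample descriptions number the WT libraries otherwise than the titles, and the numbers are not taken as pairs. The mature length trend and the shares of all assigned reads were added after the data were seen. Low counts limit Rps10, with at most 130 reads, and the small nucleolar RNAs.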
